A study of Mus musculus with 18 samples.

Results

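The genes described here are the ligands and receptors of the tumour necrosis factor (TNF) superfamily, with the ectodysplasin branch that acts in hair follicles. Members were taken by gene symbol: every Tnfsf or Tnfrsf symbol followed by a digit, plus Tnf, Lta, Ltb, Fas, Fasl, Cd40, Cd40lg, Ngfr, Eda, Edar, Eda2r and Edaradd. Tnfrsf11a, Tnfrsf11b and Tnfsf11 were left out. The rule found 41 of 55357 genes in the table, and the rule uses the symbol alone. Among them, Tnfsf13os is an antisense transcript that the symbol pattern picked up. The values come from bulk RNA of back skin of FVB mice aged 6 months, with 1 library per mouse and 6 mice per group. The first group is WT. The N-IKKa group carries exogenous IKKα that is placed in the nuclei of keratinocytes, and in the C-IKKa group it is placed in their cytoplasm. No source used here gives the promoter that drives the transgene or the number of founder lines. The deposited values are normalized counts, and 11.1 to 15.7 M reads were recovered per library.

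TNF-family ligands are mostly trimeric proteins on the surface of a cell or shed from it, and each binds a small set of receptors. Death receptors such as Fas and Tnfrsf10b carry a death domain that can start apoptosis, while other receptors recruit TRAF adaptors and activate the IKK complex and NF-kB. Ectodysplasin A (Eda) signals through Edar and its adaptor Edaradd to NF-kB, a route needed for the formation of hair follicles, sweat glands and teeth. IKKα, the product of Chuk, is a kinase of the IKK complex and also acts in keratinocyte differentiation.

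The Chuk entry did not separate the groups. Its normalized count ran from 851 to 1267 in WT (median 989), from 804 to 1050 in N-IKKa (median 1021) and from 853 to 934 in C-IKKa (median 885). Its log2 fold change came to -0.17 in C-IKKa against WT (limma adjusted p = 0.948) and -0.02 in N-IKKa against WT (limma adjusted p = 0.969). The table has no separate entry for the transgene, and whether its reads are counted under Chuk is not known. The skin also differed in hair growth. The mean log2 value over 24 hair shaft and inner root sheath genes was 9.92 to 12.1 in 6 libraries and 2.07 to 5.36 in the other 12. The first set, called growing-hair libraries here, holds C-IKKa 14, N-IKKa 8, 9 and 11, and WT 1 and 4. The other 12 are called resting-hair libraries. This state was read from the data and is not a label of the study. By Ddx3y, 8 libraries were male and 10 female, and all 6 growing-hair libraries were female. The 6 mice of WT held 2 males, those of N-IKKa 2 and those of C-IKKa 4.

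Which members the skin expresses was read first, from the median over all 18 libraries divided by exon length in kilobases. On this scale the 5 highest members were receptors. Tnfrsf1a, the main receptor for TNF, was highest at 573 normalized counts per kb, and Tnfrsf19, also known as TROY, followed at 569. Over the 18 libraries Tnfrsf1a ran from 430 to 706 normalized counts per kb and Tnfrsf19 from 452 to 886, so these neighbours did not differ beyond their spread. Tnfrsf21, a death receptor, stood at 282 normalized counts per kb, Fas at 211, and Tnfrsf14, the receptor for Tnfsf14 (LIGHT), at 129. Edaradd was at 119 and Eda at 116 normalized counts per kb, above every other ligand tested, while Edar was at 25.3 and Eda2r, an X-linked receptor for another ectodysplasin isoform, at 55.8. The highest ligand outside the ectodysplasin branch was Tnfsf10 (TRAIL), which engages the death receptor Tnfrsf10b in the mouse, at 84.7 normalized counts per kb. Tnf itself was at 32.0 and Ltb, a subunit of the lymphotoxin heterotrimer, at 16.5 normalized counts per kb.

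**Figure D1:**
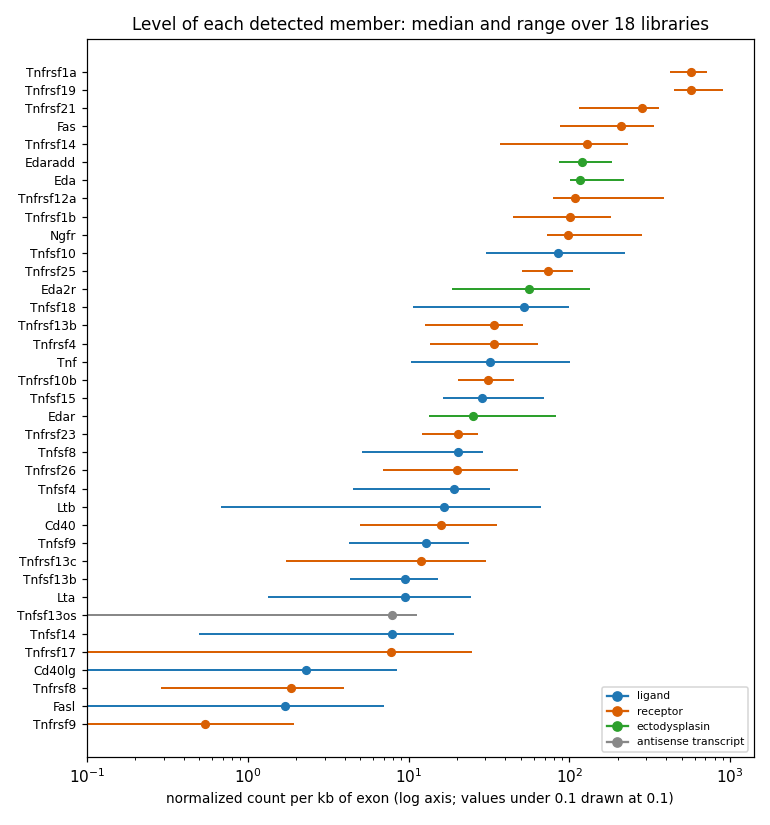
Median (point) and range (line) over 18 libraries of the normalized count per kb of exon, on a log axis, for the 37 members with any read, coloured by role. Tnfrsf1a and Tnfrsf19 sit at the top, at 573 and 569, Tnfsf10 is the highest ligand outside the ectodysplasin branch at 84.7, and Tnfrsf9 is lowest at 0.544.

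Of the 41 members, 33 passed the filter of at least 10 normalized counts in at least 6 libraries. Of the rest, 4 had reads but stayed under it. Cd40lg, the T cell ligand of Cd40, reached 10.5 normalized counts at most, Fasl, the ligand of Fas, 13.4, Tnfrsf8 (CD30) 13.4, and Tnfrsf9 (4-1BB) 5.22. Another 4, Tnfrsf18, Tnfrsf22, Tnfsf12 and Tnfsf13, were listed at 0 in all 18 libraries, which allows up to 2.45 to 3.61 normalized counts depending on the library. In an annotation of the earlier mouse build, exons of the read-through gene Tnfsfm13 cover 48.3% of the exon length of Tnfsf12 and 60.0% of that of Tnfsf13 on the same strand. Exons of Gm16008 cover 27.2% of Tnfrsf18 on the opposite strand, and no exon of another gene covers Tnfrsf22. The part of exon overlap in these zeros was not tested, so a value of 0 is not read as absence of the transcript. Tnfsf13os shares 22.8% of its exon length with genes on the opposite strand, so its reads (at most 12.4 normalized counts) are uncertain.

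Against WT, most members lay higher in C-IKKa skin, but limma called none. On log2 values, 0 of 33 tested members were called higher at an adjusted p below 0.05, where 0.345% of all 17667 tested genes were, and 0 were called lower, where 0% of all genes were. edgeR called 0 members, where it called 55 of all 17667 genes higher and 0 lower. DESeq2 called 1 member higher, Tnfrsf10b, where it called 136 of all genes higher and 15 lower. At an unadjusted p below 0.05, 10 of 33 members passed, against 5.73% of all genes. The fold change was above 0 for 27 of 33 members, with a median log2 fold change of 0.25 against 0.00 over all tested genes. With sex as a covariate it was above 0 for 21 members with a median of 0.094, and with the hair shaft mean for 25 with a median of 0.15. In N-IKKa against WT, limma called 0 members higher and 0 lower, where 0.00566% of all genes were called higher and 0% lower. edgeR and DESeq2 also called 0, and 4 of 33 members had an unadjusted p below 0.05, against 4.14% of all genes. The fold change was above 0 for 9 of 33 members, with a median of -0.18 against 0.01 for all genes. Without the growing-hair libraries the direction turned, with 19 of 33 above 0 and a median of 0.067. In N-IKKa against C-IKKa, 1 member was called lower by limma, where 0.425% of all genes were, and 0 were called higher, where 0.00566% were. Here 9 of 33 had an unadjusted p below 0.05, against 11.7% of all genes, and the median log2 fold change was -0.42 against 0.01, with 6 of 33 members above 0. Without the growing-hair libraries the median was -0.097, with 14 of 33 above 0. These 3 comparisons share libraries, so they are not independent of each other. The 6 libraries of 1 genotype stood apart from the 6 of another for 0 members in each comparison. Over all genes the corresponding share was 0.985% for C-IKKa against WT, 0.125% for N-IKKa against WT and 1.05% for N-IKKa against C-IKKa. In bulk skin, fewer cells of a type and less RNA per cell cannot be told apart.

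**Figure D2:**
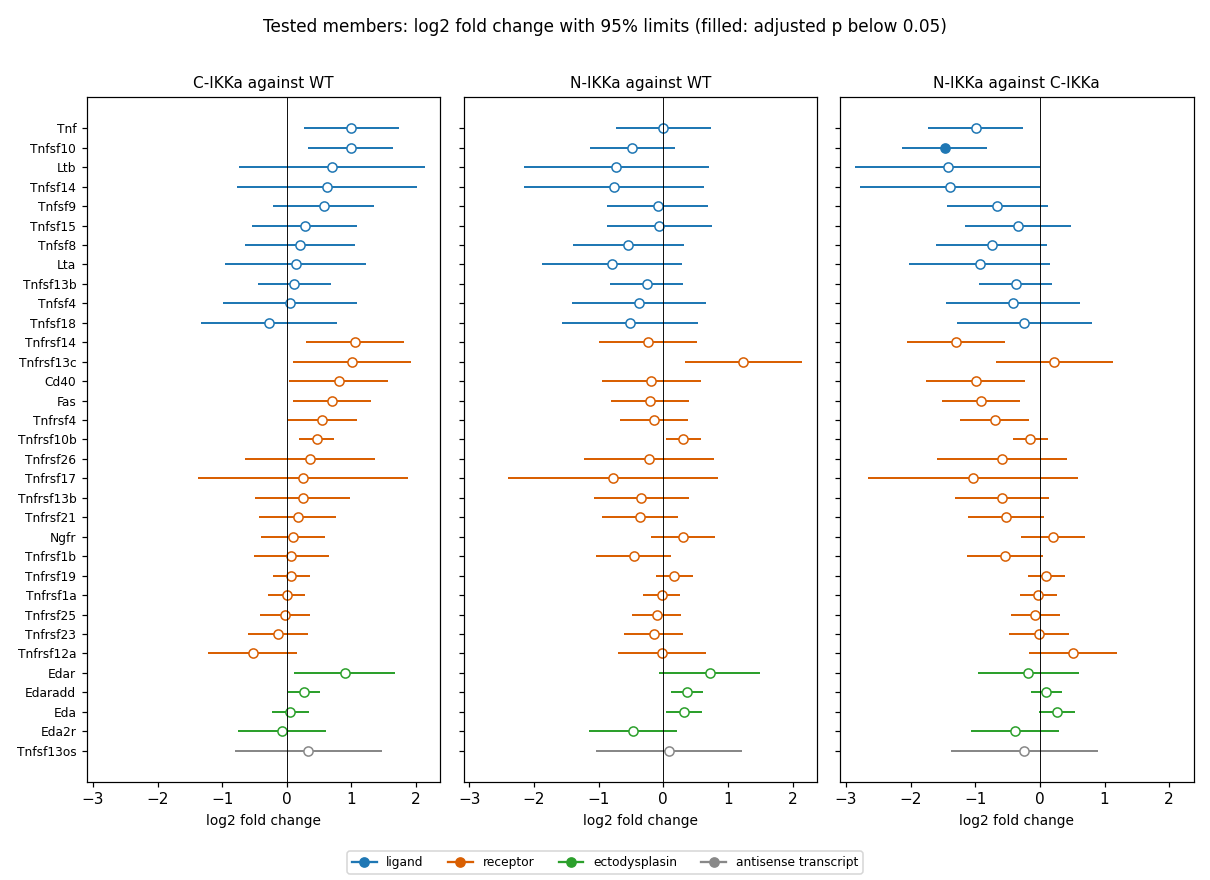
Log2 fold change (point) with 95% limits (line) of the 33 tested members in the 3 comparisons, coloured by role, with filled points for an adjusted p below 0.05. The only filled point is Tnfsf10 in N-IKKa against C-IKKa, at -1.47, and 27 of 33 points lie above 0 in C-IKKa against WT.

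The called member was Tnfsf10, lower in N-IKKa than in C-IKKa. Its normalized count ran from 467 to 1147 in C-IKKa (median 748), from 161 to 480 in N-IKKa (median 274) and from 199 to 486 in WT (median 416). C-IKKa 15, at 467, was the only C-IKKa library within the range of the other groups. The log2 fold change was -1.47 in N-IKKa against C-IKKa (SE 0.31, limma adjusted p = 0.0385). It was 0.99 in C-IKKa against WT (SE 0.31, limma adjusted p = 0.384) and -0.48 in N-IKKa against WT (SE 0.31, limma adjusted p = 0.880), neither of which passed. The call in N-IKKa against C-IKKa rested on a narrow margin. It was lost by edgeR (adjusted p = 0.0547), with sex as a covariate (adjusted p = 0.0620), and without the growing-hair libraries (-0.99, limma adjusted p = 0.141). Among fits without 1 library it was lost without WT 1, 2, 3 or 6, N-IKKa 8, 9 or 11, or C-IKKa 13, 16, 17 or 18, with fold changes between -1.52 and -1.33 in those 11 fits. With the hair shaft mean as a covariate the fold change was -1.21 (SE 0.18, limma adjusted p = 0.000716). In that fit Tnfsf10 was also called higher in C-IKKa than in WT, at 0.87 (SE 0.17, limma adjusted p = 0.0131). Within resting hair alone, Tnfsf10 ran from 467 to 1147 in 5 C-IKKa libraries, from 394 to 486 in 4 WT libraries and from 349 to 480 in 3 N-IKKa libraries.

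Tnf, the inflammatory cytokine that gives the family its name, ran from 48.1 to 163 normalized counts in C-IKKa (median 82.7). It ran from 17.1 to 72.6 in WT (median 45.4) and from 22.4 to 57.2 in N-IKKa (median 46.9). The groups overlapped, and the 3 highest libraries, C-IKKa 13, 16 and 17, were all male. The log2 fold change came to 0.996 in C-IKKa against WT (SE 0.34, limma adjusted p = 0.519) and -0.99 in N-IKKa against C-IKKa (SE 0.34, limma adjusted p = 0.339). With sex as a covariate these were 0.80 and -0.80. In resting hair, Tnf was higher in each of 5 C-IKKa libraries (62.4 to 163) than in any of 3 N-IKKa libraries (48.4 to 57.2). It was the only member of 33 to stand apart in that comparison, where 5.2% of all genes did.

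The largest fold changes among the other ligands belonged to genes with few reads. Ltb ran from 12.2 to 99.8 normalized counts in C-IKKa, from 1.04 to 44.1 in N-IKKa and from 7.99 to 44.4 in WT, with a log2 fold change of -1.42 in N-IKKa against C-IKKa (SE 0.67, limma adjusted p = 0.428). It was -0.87 without N-IKKa 11 and -0.55 without the growing-hair libraries. Tnfsf14 (LIGHT) ran from 11.0 to 26.0 in C-IKKa and from 0.932 to 35.1 in N-IKKa, with a fold change of -1.38 (SE 0.66, limma adjusted p = 0.428). The N-IKKa group held both its lowest and its highest library. The Tnfsf14 fold change was -0.69 with edgeR and -0.70 with DESeq2. Without the growing-hair libraries it had the other sign, at 0.050 (SE 0.38). Lta, which forms lymphotoxin with Ltb, ran from 1.86 to 21.2 in N-IKKa and from 7.99 to 33.4 in WT, with a log2 fold change of -0.80 (SE 0.51, limma adjusted p = 0.880), and of -0.43 without N-IKKa 8. The other 6 ligands tested, Tnfsf4, Tnfsf8, Tnfsf9, Tnfsf13b, Tnfsf15 and Tnfsf18, had log2 fold changes between -0.27 and 0.57 in C-IKKa against WT.

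The death receptor Tnfrsf10b, which binds Tnfsf10, had the smallest unadjusted p of the members in C-IKKa against WT, at 0.00127. It ran from 163 to 242 normalized counts in C-IKKa (median 193), from 112 to 168 in WT (median 138) and from 158 to 207 in N-IKKa (median 171). The lowest C-IKKa library lay just below the highest WT library, so the ranges overlapped slightly. The log2 fold change came to 0.46 in C-IKKa against WT (SE 0.12, limma adjusted p = 0.177) and 0.31 in N-IKKa against WT (SE 0.12, limma adjusted p = 0.880). DESeq2 called the first, at 0.47 (adjusted p = 0.0301). In resting hair Tnfrsf10b was higher in each of 5 C-IKKa libraries (163 to 209) than in any of 4 WT libraries (112 to 162). It was the only member of 33 to stand apart in that comparison, a share of 3.03% where 3.94% of all genes did. Fas ran from 432 to 682 in C-IKKa (median 644), from 211 to 501 in WT (median 389) and from 182 to 511 in N-IKKa (median 321). In 4 C-IKKa libraries Fas (635 to 682) lay above all WT and N-IKKa libraries, and C-IKKa 14 and 15 did not. The Fas log2 fold change came to 0.70 in C-IKKa against WT (SE 0.28, limma adjusted p = 0.694) and -0.91 in N-IKKa against C-IKKa (SE 0.28, limma adjusted p = 0.259). The latter was -0.35 without the growing-hair libraries. With the hair shaft mean as a covariate it was called in both, at 0.59 (SE 0.13, limma adjusted p = 0.0411) and -0.66 (SE 0.14, limma adjusted p = 0.0215).

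Tnfrsf14 was also higher in most C-IKKa libraries than in the other groups. It ran from 191 to 326 normalized counts in C-IKKa (median 293), from 78.8 to 200 in WT (median 138) and from 54.0 to 248 in N-IKKa (median 125). C-IKKa 15 was the only C-IKKa library below the highest WT library. The log2 fold change came to 1.05 in C-IKKa against WT (SE 0.35, limma adjusted p = 0.501) and -1.29 in N-IKKa against C-IKKa (SE 0.35, limma adjusted p = 0.178). The latter was -0.45 without the growing-hair libraries. With the hair shaft mean as a covariate Tnfrsf14 was called in both, at 0.92 (SE 0.21, limma adjusted p = 0.0458) and -0.998 (SE 0.22, limma adjusted p = 0.0284). Cd40, a costimulatory receptor of antigen-presenting cells, ran from 48.1 to 118 in C-IKKa, from 17.1 to 69.5 in WT and from 27.1 to 77.5 in N-IKKa. Its log2 fold change came to 0.81 in C-IKKa against WT (SE 0.36, limma adjusted p = 0.827) and -0.99 in N-IKKa against C-IKKa (SE 0.36, limma adjusted p = 0.361), the former 0.53 without WT 4. Tnfrsf4 (OX40), a costimulatory receptor of T cells, had a log2 fold change of 0.55 (SE 0.24, limma adjusted p = 0.823) and of -0.70 (SE 0.24, limma adjusted p = 0.342) in the same comparisons, the second being -0.26 without the growing-hair libraries.

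**Figure D3:**
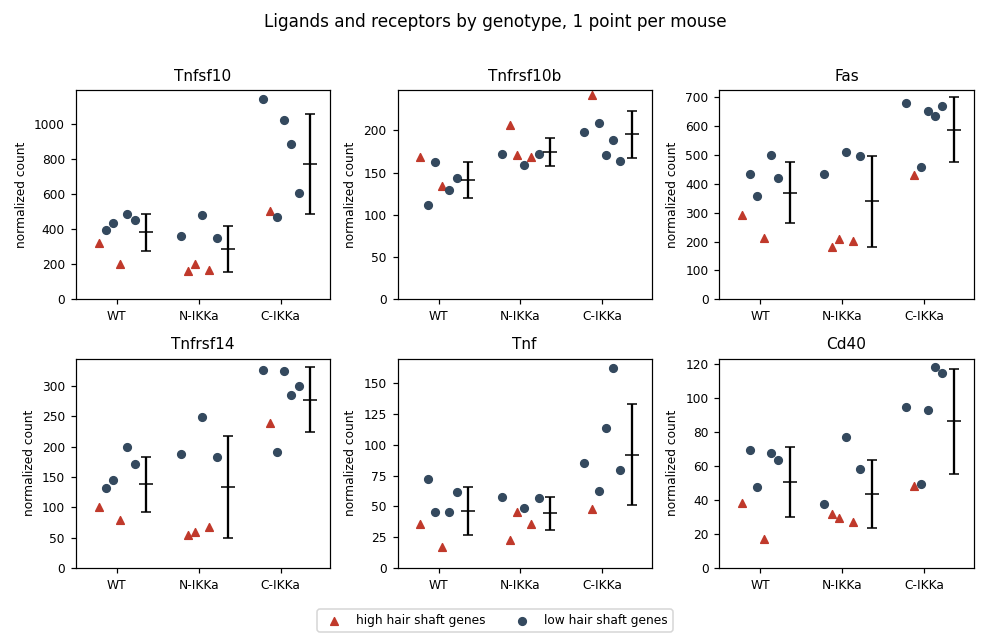
Normalized count of 6 members in each of 18 libraries by genotype, with triangles for the 6 growing-hair libraries, circles for the 12 resting-hair libraries, and a bar for the group mean ± SD (n = 6). In C-IKKa, Tnfsf10, Fas, Tnfrsf14 and Cd40 were high in 4 libraries and lower in C-IKKa 14 (triangle) and C-IKKa 15.

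BAFF (Tnfsf13b) binds Tnfrsf13c, Tnfrsf13b (TACI) and Tnfrsf17 (BCMA), and none of these was called by limma. Tnfrsf13b had log2 fold changes of 0.24 for C-IKKa and -0.34 for N-IKKa, each against WT. The first was -0.081 and the second -0.0048 without the growing-hair libraries, and the first was 0.0019 without WT 4 alone. Tnfrsf13c, the BAFF receptor of B cells, ran from 3.57 to 29.7 normalized counts in WT (median 12.2), from 17.5 to 61.5 in N-IKKa (median 27.2) and from 14.3 to 41.6 in C-IKKa (median 26.6). Its log2 fold change was 1.24 in N-IKKa against WT (SE 0.42, limma adjusted p = 0.880) and 1.01 in C-IKKa against WT (SE 0.42, limma adjusted p = 0.771). In resting hair each of 3 N-IKKa libraries (17.5 to 35.2) was higher than any of 4 WT libraries (3.57 to 15.1). Tnfrsf17, a receptor of plasma cells, ran from 0 to 7.57 in N-IKKa and from 0 to 19.9 in WT, with a log2 fold change of -0.78 (SE 0.77, limma adjusted p = 0.880) there and of 0.25 in C-IKKa against WT, the latter -0.39 without the growing-hair libraries and -0.31 without WT 1. The first was -1.34 without WT 1, -0.47 without WT 5, -0.38 without N-IKKa 12 and -2.55 without the growing-hair libraries. In resting hair its 3 N-IKKa libraries (0 to 3.52) lay below all 4 WT libraries (7.15 to 19.9). Tnfrsf13c and Tnfrsf17 were the only members of 33 to stand apart between N-IKKa and WT in resting hair, a share of 6.06% where 7.08% of all genes did. Among the B and plasma cell markers, Igkc, Ms4a1 and Mzb1 were listed at 0 in every library. The summed level of that list was 1204 to 1656 in resting N-IKKa and 809 to 1555 in resting WT libraries. Of the remaining receptors, Tnfrsf12a (Fn14) had the lowest log2 fold change in C-IKKa against WT, at -0.53 (SE 0.32, limma adjusted p = 0.980). It was -0.25 without WT 1, whose 733 normalized counts were the most of any library, and -0.13 without the growing-hair libraries. Tnfrsf1a was nearly level, with 95% limits of -0.27 to 0.27 for C-IKKa against WT and of -0.30 to 0.24 for N-IKKa against WT.

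Marker lists of several cell types had medians of the same sign as that of the members. In N-IKKa against C-IKKa the median log2 fold change was -0.79 over 15 tested T cell markers, -0.92 over 12 markers of Langerhans and dendritic cells, -0.47 over 13 of macrophages and monocytes and -0.84 over 4 of NK cells. Over 4 B and plasma cell markers it was -1.08, over 6 of the sebaceous gland -0.96, over 7 of skeletal muscle -0.73 and over 7 of adipocytes -0.62. limma called 0 genes of these 8 lists, and 4, 5, 1, 1, 1, 3, 0 and 1 of them had an unadjusted p below 0.05, in the order given. Without the growing-hair libraries the same medians lay between -0.31 and 0.04, at -0.10 for T cells and -0.14 for Langerhans and dendritic cells. Lists of the growing hair follicle and of melanocytes had the other sign over all 18 libraries. Their medians were 2.52 for hair shaft and inner root sheath, 1.32 for hair matrix, 0.996 for dermal papilla and 1.52 for melanocytes. The remaining cell type lists had medians between -0.59 (mast cells) and -0.10 (hair follicle stem cells). In C-IKKa against WT the fold change was above 0 for 14 of 15 T cell markers (median 0.39), 12 of 12 of Langerhans and dendritic cells (median 0.66) and 6 of 6 of the sebaceous gland (median 0.66), with 0 called by limma. These medians were 0.19, 0.35 and 0.48 without the growing-hair libraries. In C-IKKa against WT the median was 0.008 for macrophages and monocytes (7 of 13 above 0) and -0.30 for neutrophils (1 of 4 above 0). It was 1.20 for B and plasma cells, 0.31 for NK cells, 0.27 for adipocytes and 0.18 for skeletal muscle. For hair shaft and inner root sheath it was -1.03, for hair matrix -0.58, for melanocytes -0.40 and for dermal papilla -0.28. The summed T cell level was 814 to 1733 normalized counts in C-IKKa, 501 to 1627 in N-IKKa and 603 to 1495 in WT. In resting hair it was 1174 to 1733 in C-IKKa and 1460 to 1627 in N-IKKa, and Foxp3 was listed at 0 throughout. The part of these cell types in the differences of the members was not tested.

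Among the ectodysplasin genes, Edar lay higher in most C-IKKa libraries and in the N-IKKa libraries with growing hair. It ran from 49.3 to 99.3 normalized counts in WT (median 72.4), from 60.0 to 295 in N-IKKa (median 115) and from 61.5 to 162 in C-IKKa (median 150). In N-IKKa the 3 resting-hair libraries (60.0 to 66.7) lay within the WT range and the 3 growing-hair libraries (163 to 295) above it. In C-IKKa, 5 of 6 libraries lay between 145 and 162, and 4 of these 5 were resting-hair libraries, while C-IKKa 15 was at 61.5. The Edar log2 fold change came to 0.90 in C-IKKa against WT (SE 0.37, limma adjusted p = 0.748) and 0.72 in N-IKKa against WT (SE 0.37, limma adjusted p = 0.880), the latter 0.45 without N-IKKa 9. Without the growing-hair libraries it was 1.02 in C-IKKa against WT (SE 0.26, limma adjusted p = 0.104) and 0.06 in N-IKKa against WT (SE 0.30, limma adjusted p = 0.982). With hair shaft mean and sex as covariates it was 1.12 in C-IKKa against WT (SE 0.28, limma adjusted p = 0.0797).

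Edaradd, the adaptor of Edar, ran from 583 to 819 normalized counts in WT (median 652), from 759 to 1214 in N-IKKa (median 811) and from 724 to 863 in C-IKKa (median 806). WT 2, at 819, was the only WT library within the range of the transgenic groups. The log2 fold change was 0.37 in N-IKKa against WT (SE 0.11, limma adjusted p = 0.880, unadjusted p = 0.00346) and 0.27 in C-IKKa against WT (SE 0.11, limma adjusted p = 0.749). The first was 0.19 without the growing-hair libraries. Eda ran from 693 to 844 in WT, from 765 to 1479 in N-IKKa and from 704 to 869 in C-IKKa, and the 3 highest libraries were the N-IKKa libraries with growing hair (950 to 1479). Its log2 fold change was 0.32 in N-IKKa against WT (SE 0.13, limma adjusted p = 0.880) and 0.27 in N-IKKa against C-IKKa (SE 0.13, limma adjusted p = 0.428). Without N-IKKa 9 these were 0.20 and 0.14, and without the growing-hair libraries 0.10 and 0.035. Eda2r ran from 111 to 776 in WT, and both ends were growing-hair libraries, WT 4 and WT 1. Its log2 fold change was -0.47 in N-IKKa against WT (SE 0.32, limma adjusted p = 0.880), -0.25 without WT 1 and -0.81 without WT 4.

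**Figure D4:**
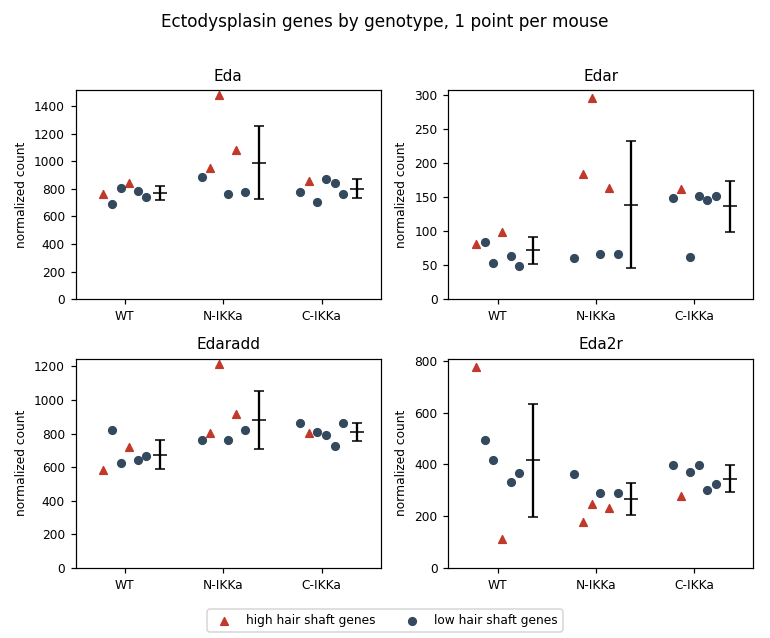
Normalized count of the 4 ectodysplasin genes in each of 18 libraries by genotype, with triangles for growing-hair and circles for resting-hair libraries, and a bar for the group mean ± SD (n = 6). Edar in N-IKKa splits into 60.0 to 66.7 (circles) and 163 to 295 (triangles), while 4 of 5 circles in C-IKKa lie between 145 and 152.

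Between hair states the family was described without a test, since the state was read from the same libraries. Of 33 tested members, 23 had a lower median log2 value in growing than in resting hair, with a median difference of -0.79 against -0.01 over all tested genes. By role, 10 of 11 ligands were lower (median -1.25), 11 of 17 receptors (median -0.68) and 1 of 4 ectodysplasin genes (median 0.13). For 3 members, Ltb, Tnfsf18 and Tnfsf8, all 6 growing-hair libraries lay below all 12 resting-hair libraries, a share of 9.09% where 5.25% of all genes did. For 0 members they lay above, where 8.45% of all genes did. Ltb ran from 1.04 to 16.1 normalized counts in growing and from 21.4 to 99.8 in resting hair. Tnfsf18 (GITR ligand) ran from 22.4 to 67.4 and from 74.4 to 202, and Tnfsf8 (CD30 ligand) from 19.8 to 45.7 and from 67.5 to 108. Because the libraries of these 3 ligands do not overlap, their medians had to be lower in growing hair within each genotype too. C-IKKa has only 1 growing-hair library.

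All growing-hair libraries were female, so sex moves with the hair state. Among the 10 female libraries, 8 members lay lower in all 6 growing-hair than in all 4 resting-hair libraries, a share of 24.2% where 9.65% of all genes did. They were Cd40, Fas, Lta, Ltb, Tnfrsf13b (TACI), Tnfsf13b, Tnfsf18 and Tnfsf8. Within resting hair, where both sexes occur, the tested members with the largest male minus female differences of medians, of either sign, were Tnfsf15 (TL1A) at 1.04 on the log2 scale, Tnfrsf17 at -1.01 and Tnfrsf26 at 0.86. Among female libraries alone, the growing minus resting difference was -0.42 for Tnfsf15, -1.96 for Tnfrsf17 and -1.07 for Tnfrsf26, where over all 18 libraries it was -1.41, -1.28 and -1.81. Over the 33 members that female difference was below 0 for 24, with a median of -0.55. Of all 17667 tested genes it was below 0 for 8896, with a median of -0.005. Over all 18 libraries, the summed level of the T cell markers was 501 to 814 normalized counts in growing and 1174 to 1733 in resting hair. For 7 of 15 tested T cell markers all growing-hair libraries lay below all resting-hair libraries, where 5.25% of all genes did. That held for 2 of 12 tested markers of Langerhans and dendritic cells and for 0 of 13 of macrophages and monocytes. The Langerhans and dendritic cell sum was 3343 to 8180 and 8022 to 17677, and the macrophage and monocyte sum 4973 to 19213 and 10182 to 20190. The part of these cells in the hair-state values was not tested.

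Members higher in growing hair were few. The largest difference of medians was that of Edar, 1.28 on the log2 scale, from 49.3 to 152 normalized counts in resting to 81.6 to 295 in growing hair. Tnfrsf12a, the receptor for Tnfsf12 (TWEAK), followed at 1.05, with 154 to 269 in resting and 260 to 733 in growing hair. Only WT 2, at 269, kept the Tnfrsf12a ranges from standing apart. Tnfrsf13c followed at 0.68. The order of Edar within genotypes was 1.46 in N-IKKa, 0.62 in WT and 0.13 in C-IKKa, the last from 1 growing-hair library.

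**Figure D5:**
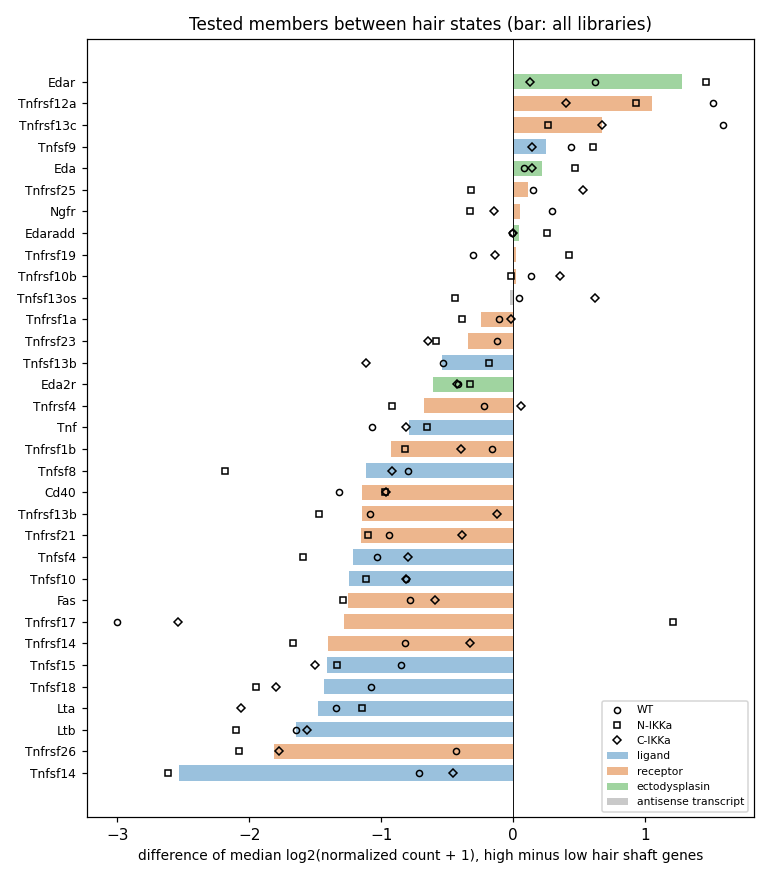
Difference of median log2(normalized count + 1) between growing-hair and resting-hair libraries for the 33 tested members (bars, coloured by role) and within each genotype (symbols). Bars run from -2.53 for Tnfsf14 to 1.28 for Edar, and 10 of 11 ligands lie below 0.

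Promoters of 4 members, chosen after their values were seen, are shown beside the values above: Tnfsf10, Fas and Tnfrsf14, the 3 members called in C-IKKa against WT with the hair shaft mean as a covariate, and Ltb, which stood apart between hair states. The promoters are RefSeq sequences on GRCm38.p6, from 250 bases before to 50 bases after the annotated start, written 5′ to 3′ on the gene's strand. Capitals mark matches on either strand to an NF-kB consensus, an interferon response element (GAAANNGAAA) or a GAS element (TTCNNNGAA), and none of the marked matches overlap. The regions are chr3:27316827-27317126 (plus strand) for Tnfsf10, chr19:34290409-34290708 (plus strand) for Fas, chr4:154928028-154928327 (minus strand) for Tnfrsf14 and chr17:35194257-35194556 (plus strand) for Ltb.
Tnfsf10: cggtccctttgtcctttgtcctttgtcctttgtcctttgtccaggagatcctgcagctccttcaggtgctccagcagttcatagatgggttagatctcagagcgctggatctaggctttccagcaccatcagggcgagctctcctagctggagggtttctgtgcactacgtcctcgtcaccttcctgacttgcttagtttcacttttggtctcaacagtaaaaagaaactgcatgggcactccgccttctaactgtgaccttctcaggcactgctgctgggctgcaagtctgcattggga
Fas: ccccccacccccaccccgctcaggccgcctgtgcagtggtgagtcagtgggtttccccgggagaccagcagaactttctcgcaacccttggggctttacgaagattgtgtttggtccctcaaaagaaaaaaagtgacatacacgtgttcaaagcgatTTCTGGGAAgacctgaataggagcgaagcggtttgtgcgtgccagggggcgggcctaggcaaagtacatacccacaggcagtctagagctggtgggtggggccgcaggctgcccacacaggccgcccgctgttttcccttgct
Tnfrsf14: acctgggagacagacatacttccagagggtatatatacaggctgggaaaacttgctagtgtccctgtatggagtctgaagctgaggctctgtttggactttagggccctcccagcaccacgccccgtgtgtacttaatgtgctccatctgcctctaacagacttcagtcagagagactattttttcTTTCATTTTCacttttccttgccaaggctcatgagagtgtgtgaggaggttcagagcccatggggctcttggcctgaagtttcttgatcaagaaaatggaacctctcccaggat
Ltb: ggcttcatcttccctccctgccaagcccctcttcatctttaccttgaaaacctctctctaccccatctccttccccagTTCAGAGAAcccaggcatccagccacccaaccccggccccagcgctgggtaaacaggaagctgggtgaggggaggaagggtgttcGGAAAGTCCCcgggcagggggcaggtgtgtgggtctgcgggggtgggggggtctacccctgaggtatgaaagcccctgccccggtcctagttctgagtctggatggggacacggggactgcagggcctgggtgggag

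The Ltb promoter held an NF-kB match that starts at -87 from the annotated start and a GAS match at -172. The windows of Tnfsf18 and Tnfsf8, which also stood apart between hair states, held none of the 3 motifs. The Fas promoter held a GAS match at -93, the Tnfrsf14 promoter an interferon response element at -64, and the Tnfsf10 window held none of the 3 motifs. Over the 36 promoters of the 32 members found in RefSeq, 3 held the NF-kB consensus, where 4.51% of all 32851 promoters did. The interferon response element was in 4 of the 36, against 3.44% of all promoters, and the GAS element in 9, against 8.3%. These are matches of letters and not measured binding.

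Downstream of the receptors, 3 inhibitors of NF-kB signalling rose in C-IKKa. Of 37 TNF receptor signalling genes, all tested, limma called 3 higher in C-IKKa against WT, where 0.345% of all genes were. It called 0 lower, where 0% of all genes were, and the median log2 fold change was 0.14 against 0.00 over all genes. The list was chosen with earlier results of these data known. Tnfaip3 (A20), a ubiquitin-editing enzyme that restrains signalling below Tnfrsf1a, rose by a log2 fold change of 1.31 (SE 0.22, limma adjusted p = 0.00745). Tnip1, a partner of Tnfaip3, rose by 0.75 (SE 0.13, limma adjusted p = 0.0137), and Nfkbia, the inhibitor IκBα, by 1.16 (SE 0.22, limma adjusted p = 0.0223). In N-IKKa against C-IKKa, limma called 0 higher, where 0.00566% of all genes were, and 5 lower, where 0.425% were. The 5 were these 3 genes, Relb, an NF-kB subunit of the alternative pathway, and Traf2, an adaptor of several TNF receptors. Relb fell by 1.31 (SE 0.26, limma adjusted p = 0.0293) and Traf2 fell by 0.63 (SE 0.12, limma adjusted p = 0.0283). The C-IKKa against WT count was 1, Tnfaip3 alone, without C-IKKa 13, 16 or 17. The N-IKKa against C-IKKa count was 1, again Tnfaip3, without the growing-hair libraries, 3 without N-IKKa 8, 9 or 11 or C-IKKa 13, and 2 without C-IKKa 16 or 17. In N-IKKa against WT, limma called 0 of the 37, with 1 at an unadjusted p below 0.05, Ikbkg.

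The other pathway lists gave no calls over all 18 libraries without covariates. Of 8 genes for shedding of TNF ligands and receptors, 7 were tested and limma called 0 in each comparison, with 0 at an unadjusted p below 0.05 in C-IKKa against WT. The sheddase Adam17 had a log2 fold change of -0.04 (SE 0.10) in C-IKKa against WT, and its cofactor Rhbdf2 had 0.22 (SE 0.11, limma adjusted p = 0.893). Of 8 target genes of ectodysplasin, 4 were tested and 0 called by limma in each comparison, with 1 at an unadjusted p below 0.05 for C-IKKa against WT and 2 for N-IKKa against WT. Foxi3, a transcription factor of the hair and tooth placode, had a log2 fold change of 1.72 in C-IKKa against WT (SE 0.66, limma adjusted p = 0.665) and Wnt10b 0.74 (SE 0.40, limma adjusted p = 0.954). Without the growing-hair libraries limma called 1 of the 4 target genes in C-IKKa against WT, with 4 above 0 and a median of 1.20. Of all 17667 genes it called 153 higher and 10 lower there. In N-IKKa against C-IKKa that fit called 1 target gene, with 0 above 0 and a median of -1.24. It called 4 of all genes higher and 47 lower in that comparison. In N-IKKa against WT the fit called 0 target genes, with 1 of 4 above 0 and a median of -0.15. There it called 2 of all genes higher and 0 lower. Over all 18 libraries 3 of the 4 were above 0 in N-IKKa against WT, with a median of 1.01. The summed level of the list was 608 to 1476 normalized counts in growing and 187 to 669 in resting hair. Cxcl10 and Cxcl11, from the same list, were listed at 0 in every library.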

How the data were processed

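Back skin RNA of 18 mice was sequenced, 1 library per mouse. Per the labels' protocols, it was purified with TRIzol and RNeasy MinElute columns and made into stranded mRNA libraries for paired-end reads on the NovaSeq platform. The submitters' processing notes name featureCounts and the build GRCm39. No source used here names the aligner, annotation release, strand setting or scaling tool. The authors deposited a signal for each gene in each library, which is a normalized count. Divided by the smallest non-zero value of its library, 100% of values came out whole to within 0.01 reads, so these quotients were taken as reads. A read equals 0.816 to 1.20 normalized counts. A value of 0 allows up to 3 reads, and such limits cover counting error only. The table had 0 unmapped sample columns.

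Genes with at least 10 normalized counts in at least 6 libraries were tested on log2(normalized count + 1) with limma 3.58.1 (R 4.3.3), trend moderation, 1 mean per group over all 18 libraries, two-sided, with Benjamini-Hochberg adjustment over 17667 genes. Fold changes are on this log2 scale, and those of low genes moved in either direction with other methods. In N-IKKa against C-IKKa, Tnfsf14 was -1.38 by limma, -0.69 by edgeR, -0.70 by DESeq2 and -0.86 with a pseudocount of 5. In N-IKKa against WT, Tnfrsf17 was -0.78 by limma, -1.21 by edgeR and -1.24 by DESeq2. The fit was tested on simulated data. edgeR 4.0.16 and DESeq2 1.42.0 on recovered reads were alternatives. Libraries above a hair shaft list mean of 8 were read as growing hair, and libraries with Ddx3y above 500 normalized counts as male. Exon lengths and overlaps came from a GRCm38 annotation, matched by gene identifier for 52081 of 55357 genes, and promoters from RefSeq.

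Members and lists were chosen with earlier results of these data known. Values were given for called members, the 3 largest fold changes of each comparison, members standing apart, Tnf and the ectodysplasin genes. For some of these, among them Eda2r, Tnfsf14, Lta and Tnfrsf17, only part of the groups is printed. Tnfsf8 and Tnfsf18 are printed by hair state only, apart from fold changes. Fas, Tnfrsf10b, Cd40, Tnfrsf4, Tnfrsf12a and the other members named with a fold change were chosen after their values were seen. Mice are separate animals, so the p-values measure the spread between animals.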

Additional observations from a re-analysis of the deposited data

Results flagged for a closer look

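Edar in C-IKKa 15 was far from the other C-IKKa libraries. Its normalized count was 61.5, while the other 5 libraries lay between 145 and 162. The gap to the nearest library was 0.884 of the whole range of the group on the log2 scale, above the 95% limit for a gap of this kind in 6 samples. In all, 42 groups of 6 were examined, and chance alone is expected to mark about 1 group in 20. C-IKKa 15 was also the lowest of its group for Tnfsf10 (467) and Tnfrsf14 (191), and it was a male library with resting hair.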

How the results depend on the processing

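No paired analysis was possible because the groups share no replicate numbers. Members called higher in C-IKKa against WT went from 0 to 1 with DESeq2 (Tnfrsf10b), to 3 with the hair shaft mean as a covariate (Tnfsf10, Fas, Tnfrsf14), to 2 with that covariate and sex (Tnfsf10, Fas), and to 2 without the growing-hair libraries and with sex (Fas, Tnfrsf14). Of all 17667 genes, those called higher went from 61 to 136 with DESeq2, 148 with hair, and 140 with hair and sex. They were 168 with array weights, 153 without the growing-hair libraries and 193 without them plus sex. Members called lower in N-IKKa against C-IKKa went from 1 to 0 with edgeR, with the pair of groups alone, with sex, without the growing-hair libraries and without them plus sex, to 3 with the hair covariate and with hair and sex, and to 2 with array weights. Of all genes, those called lower there went from 75 to 59 with edgeR, 54 with the pair of groups alone and 62 with sex. They were 47 without the growing-hair libraries and 65 without them plus sex. With hair they were 149, with hair and sex 164, with array weights 158 and with DESeq2 171. Leaving out 1 library gave 0 to 1 members called lower in N-IKKa against C-IKKa and 0 in the other comparisons and directions. The Tnfsf14 fold change in N-IKKa against C-IKKa turned from -1.38 to 0.050 without the growing-hair libraries and to 0.064 with sex as well. Without the growing-hair libraries Tnfrsf13b and Tnfrsf17 turned from 0.24 to -0.081 and from 0.25 to -0.39 in C-IKKa against WT, and Tnfrsf17 was also negative with quantile scaling (-0.11) and with sex in addition (-0.067). Its range over fits without 1 library was -0.31 to 0.59. Tnfrsf13b in N-IKKa against WT turned from -0.34 to 0.041 without those libraries and with sex. The fits without growing-hair libraries and with sex were chosen after seeing the data, as were all alternatives for the signalling list. TNF receptor signalling genes called higher in C-IKKa against WT went from 3 to 6 with DESeq2, 8 with hair, 7 with hair and sex, 7 with array weights, and 5 without the growing-hair libraries, with or without sex. Leaving out 1 library gave 1 to 4. Those called lower in N-IKKa against C-IKKa went from 5 to 7 with DESeq2 and with array weights, 6 with hair and with hair and sex, 4 with sex, 3 with the pair of groups alone, 1 without the growing-hair libraries and 3 without them plus sex, and leaving out 1 library gave 2 to 5. Tnfaip3 was called in every one of these fits. A hair cut of 6 gave the same 6 libraries, and a cut of 10 gave 4, with N-IKKa 9 and C-IKKa 14 just below it. Pseudocounts of 0.5 and 5, no filter, a filter of 50, and TMM or quantile scaling changed no count of called members. Why counts moved was not tested, and the fits that leave libraries out also rest on fewer libraries. Low reads limit Ltb, Lta, Tnfsf14, Tnfrsf17 and Tnfsf13os.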
